A study of Mus musculus with 12 samples.

Results

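The 76 genes described here encode proteins of the mitochondrial ribosome. They were taken by name, as every mouse gene whose symbol is Mrpl or Mrps followed by a number and at most 1 letter in the annotation of the array, out of 18193 genes named there. By symbol 47 belong to the large subunit (Mrpl) and 29 to the small subunit (Mrps). The array read the 76 genes with 156 probe sets, and each gene was followed through its brightest one. The other 4 probe sets that name a member also name a second gene and were left out, so that Mrpl30 and Mrpl53 have no value here. All 76 members passed the filter on low signal, as did 13008 genes in all.

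The mitochondrial ribosome translates the few proteins that mitochondrial DNA still encodes, which are core subunits of the respiratory chain and of ATP synthase. Its RNAs come from mitochondrial DNA, but every one of its proteins is encoded in the nucleus, made by cytosolic ribosomes and imported. Part of these proteins descend from the bacterial ribosome, and the others were added during the evolution of mitochondria. Soleus is a postural muscle rich in slow, oxidative fibres, and tibialis anterior (TA) is a fast muscle.

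Total RNA was measured on Affymetrix arrays in soleus and TA of 4-week-old mice that were either wild type (WT) or knockout (KO) for H6pd, the gene of hexose-6-phosphate dehydrogenase, which makes NADPH inside the endoplasmic reticulum. Each genotype gave 3 arrays of either muscle, 12 arrays in 4 groups, and the labels call the 3 biological replicates. At this age, after weaning, the design text reports no overt sign of myopathy in histology. The knockout allele, the strain and the sex of the mice, and whether both muscles came from the same mice, are not stated in the labels. Signals are log2 values, a difference of 1 being a doubling, and the number of arrays limits their precision.

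The muscles matched their labels: the summed signal of 8 slow fibre genes was 308000 to 366000 on the 6 soleus arrays and 1400 to 7030 on the 6 TA arrays. The targeted gene gave no check of genotype. Its 1 probe set read 4.90 ± 1.04 (SD, n = 3) in KO and 6.27 ± 0.78 in WT soleus, and 6.96 ± 0.50 in KO and 6.85 ± 0.93 in WT TA, and no source at hand says whether it lies in the deleted part. KO and WT therefore mean arrays so labelled throughout. The 4 arrays numbered 3 stood apart from the other 8 on the second principal component, which held 18.6% of the variance, with scores of -33.9 to -23.8 against 5.8 to 21.9. Each group held 1 of them. Over the members, the median of array 3 minus the other arrays was -0.13 in KO soleus, -0.01 in WT soleus, -0.01 in KO TA and 0.02 in WT TA. In 33 members (43.4%, against 40.5% of all genes) array 3 departed from the others in the same direction in all 4 groups. The directions differed from those of all genes. Array 3 was higher in 12 of these members and lower in 21, against 3545 higher and 1725 lower among all 13008 genes.

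Mitoribosomal promoters are known for sites of NRF1, of the ETS factor GABPA (NRF2) and of YY1, factors that many nuclear genes of mitochondrial proteins share. RefSeq promoter windows (mouse build GRCm38.p6, 250 bases before to 50 after a start) were at hand for 67 of the 76 members, 73 windows in all. On either strand, the letters CCGGAAG (GABPA) stood in 34.2% of the members' windows and in 8.86% of all 32851 windows. The NRF1 letters, GCGC and TGCGC with any 1 base between them, stood in 16.4% against 4.6%, and AAGATGGC (YY1) in 16.4% against 2.75%. One or more of these 3 was found in 56.2% of the members' windows and in 14.7% of all windows. CACGTG (the E-box) stood in 9.59% against 7.15%, and CCAAT in 39.7% against 37.4%. TGATGNAAN, a form of the site of the stress factor ATF4, stood in none of the 73 windows and in 3.95% of all. No matches of different motifs overlapped. A match describes the letters of the window and no binding was measured.

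The windows of 5 members whose signal differed between KO and WT follow, to show how they differ in these motifs. Capitals mark the matches. Mrpl23, lower in KO, lies at chr7:142532782-142533081 on the plus strand and held none of the motifs. Mrpl20, lower in KO, lies at chr4:155802628-155802927 on the plus strand and held CACGTG from base -33 and CCAAT from base 31 counted from the start. Mrps21, lower in KO, lies at chr3:95871465-95871764 on the minus strand and held the NRF1 letters from base -91 and, on the opposite strand, the GABPA letters from base 19. Mrpl42, lower in KO, lies at chr10:95501900-95502199 on the minus strand and held AAGATGGC from base 28 and, on the opposite strand, CCAAT from base -218. Mrpl17, higher in KO, lies at chr7:105811038-105811337 on the minus strand and held the NRF1 letters from base -49, on the opposite strand, and the GABPA letters from base -237.
Mrpl23: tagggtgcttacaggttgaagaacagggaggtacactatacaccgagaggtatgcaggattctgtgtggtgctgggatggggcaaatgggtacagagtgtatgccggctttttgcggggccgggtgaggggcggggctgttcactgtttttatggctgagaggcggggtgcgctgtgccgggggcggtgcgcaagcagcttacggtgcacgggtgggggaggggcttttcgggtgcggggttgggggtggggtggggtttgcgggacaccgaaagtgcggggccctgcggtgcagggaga
Mrpl20: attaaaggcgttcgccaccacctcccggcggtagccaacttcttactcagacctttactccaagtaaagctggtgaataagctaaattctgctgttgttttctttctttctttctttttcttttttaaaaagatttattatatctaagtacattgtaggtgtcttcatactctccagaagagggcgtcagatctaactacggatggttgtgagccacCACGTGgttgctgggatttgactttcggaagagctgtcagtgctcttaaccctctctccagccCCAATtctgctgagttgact
Mrps21: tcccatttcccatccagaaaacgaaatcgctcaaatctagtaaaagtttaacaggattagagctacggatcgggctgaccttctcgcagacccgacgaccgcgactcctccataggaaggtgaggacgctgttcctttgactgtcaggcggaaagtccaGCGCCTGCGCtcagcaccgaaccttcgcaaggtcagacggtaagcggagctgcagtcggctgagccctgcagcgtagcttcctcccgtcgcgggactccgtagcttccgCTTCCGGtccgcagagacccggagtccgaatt
Mrpl42: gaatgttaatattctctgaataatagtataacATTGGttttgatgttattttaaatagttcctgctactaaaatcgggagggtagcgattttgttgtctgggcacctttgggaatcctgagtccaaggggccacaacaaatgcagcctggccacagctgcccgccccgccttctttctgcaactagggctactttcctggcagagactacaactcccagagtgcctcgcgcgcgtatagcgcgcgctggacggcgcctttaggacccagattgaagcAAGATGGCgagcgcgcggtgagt
Mrpl17: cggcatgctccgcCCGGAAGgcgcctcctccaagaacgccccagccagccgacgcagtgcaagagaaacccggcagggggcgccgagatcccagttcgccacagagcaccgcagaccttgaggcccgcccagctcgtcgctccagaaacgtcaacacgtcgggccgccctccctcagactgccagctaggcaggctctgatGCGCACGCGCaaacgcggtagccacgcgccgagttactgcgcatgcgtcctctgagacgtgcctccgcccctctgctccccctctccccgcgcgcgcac

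In soleus, no single member passed the test between KO and WT, while most members read lower in KO. Of the 76, 22 (28.9%) lay above 0 against 51.1% of all genes, and 54 below, and the median difference was -0.10 against 0.00. No member was called by limma with Benjamini-Hochberg adjustment at 0.05, a threshold that 0.0308% of all genes passed (4 genes). At an unadjusted p under 0.05 there were 15 members, and 8.76% of all genes. In 19 of the 76 members every KO array lay below every WT array, which held for 6.08% of all genes, and in 3 every KO array lay above, against 5.88%. The lowest differences were those of Mrpl23 (-0.83, adjusted p = 0.256), Mrpl4 (-0.57, adjusted p = 0.330), Mrps25 (-0.56, adjusted p = 0.316) and Mrpl55 (-0.55, adjusted p = 0.679). The highest were those of Mrps34 (0.26, adjusted p = 0.629), Mrpl13 (0.26, adjusted p = 0.607), Mrps10 (0.22, adjusted p = 0.630) and Mrpl17 (0.21, adjusted p = 0.778). When noisier arrays were given less weight, 7 members passed, all lower in KO (Mrpl23, Mrpl4, Mrpl37, Mrps16, Mrpl2, Mrpl34 and Mrpl43). The summed unlogged signal of 5 skeletal muscle fibre genes was 259000 to 267000 in KO and 281000 to 288000 in WT soleus. The genes did not move alike, and none was called. Ckm and Mb differed by -0.25 and -0.23 (adjusted p = 0.469 and 0.388), and Neb, Acta1 and Ttn by -0.09, -0.03 and 0.00. In whole tissue, fewer cells of a type and less RNA per cell cannot be told apart, and the part of the shift in this sum in the members' values was not tested.

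In TA, 5 of the 76 members differed between KO and WT (6.58%, against 2.83% of all genes tested), and they did so in both directions. Mrpl23, the counterpart of the bacterial protein L23 at the exit of the peptide tunnel, fell by 1.33 in KO (SE 0.21, adjusted p = 0.0136), which is 2.52-fold lower. Mrpl20, the counterpart of L20, a protein needed to assemble the bacterial large subunit, fell by 0.58 (SE 0.13, adjusted p = 0.0493). Mrps21, a small subunit protein of bacterial descent, fell by 0.54 (SE 0.11, adjusted p = 0.0294). Mrpl17, the counterpart of L17, which also lies near the tunnel exit, rose by 0.78 (SE 0.13, adjusted p = 0.0156), 1.72-fold. Mrps34, a small subunit protein found in mitochondria only, rose by 0.61 (SE 0.13, adjusted p = 0.0370). The members as a group were centred near 0, with a median of -0.01 and 36 above 0 (47.4%, against 48.6% of all genes). Calls lower in KO made up 1.41% of all genes and calls higher 1.42%. At an unadjusted p under 0.05 there were 22 members (17.1% of all genes). KO and WT arrays did not overlap in 18 members that read lower in KO (23.7%, against 12.5% of all genes) and 11 that read higher (14.5%, against 10.7%).

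How many TA calls passed varied with the arrays fitted, while none of these 5 differences changed sign: none passed without KO TA replicate 2, without KO TA replicate 3 or without the 4 arrays numbered 3, 2 without WT TA replicate 1 or 3 or WT soleus replicate 2, and 3 without WT TA replicate 2, WT soleus replicate 1 or WT soleus replicate 3, the soleus arrays entering through the shared estimate of spread. Without KO TA replicate 1 the count was 5, of which 3 were among these, Mrpl20 and Mrps34 being lost. Over all alternatives the difference ran from -1.52 to -1.22 for Mrpl23, -0.65 to -0.48 for Mrpl20 and 0.51 to 0.72 for Mrps34, and farther for Mrpl17 (0.40 to 0.89) and Mrps21 (-0.62 to -0.26). With the array number as a block, 10 members passed, 5 in each direction, and adjusted p-values of the other 5 were 0.00953 (Mrps18b, 0.72), 0.0447 (Mrpl3, 0.50), 0.0448 (Mrpl19, 0.46), 0.0403 (Mrpl42, -0.37) and 0.0242 (Mrps24, -0.56). The split of calls moved with the scaling, from 2 higher and 3 lower to 2 and 2 on the table as deposited and to 3 and 1 after centring each array on its median. Several marker sums differed between KO and WT TA without overlap. The 5 skeletal muscle fibre genes summed to 244000 to 261000 in KO against 268000 to 272000 in WT. The 8 slow fibre genes summed to 4430 to 7030 against 1400 to 3870, and 9 fast fibre genes to 438000 to 483000 against 495000 to 512000. No single gene in these fibre sums was called between KO and WT TA. The 2 measured of 4 lymphocyte genes summed to 95.9 to 269 in KO against 1540 to 2110 in WT, and Ighm fell by 3.51 (SE 0.47, adjusted p = 0.00877). Cd3e, the other of the 2, differed by -0.10 (adjusted p = 0.581). The part of all these markers in the calls was not tested.

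**Figure D1:**
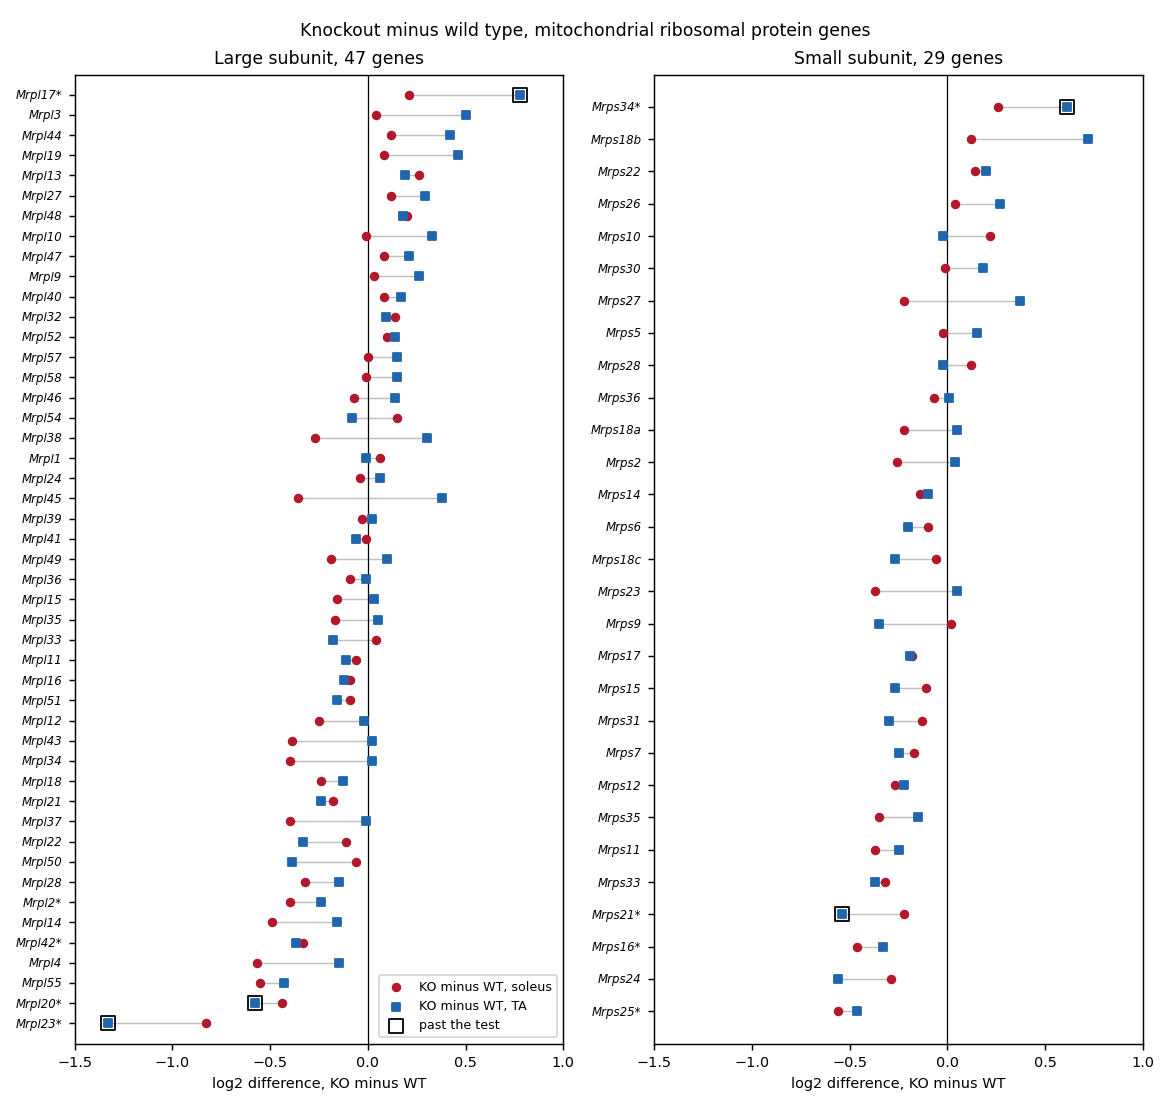
Log2 difference of KO minus WT for each of the 47 large subunit genes (left) and 29 small subunit genes (right), in soleus (circles) and TA (squares), ordered by the mean of both. Black outlines mark the 5 members past the test in TA, asterisks the 9 past it for the mean of both muscles; most soleus points lie left of 0, and Mrpl23 is lowest in both muscles.

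Averaging the KO effect over both muscles uses 6 arrays on each side and called 9 of 76 members (11.8%, against 4.88% of all genes), 7 of them lower in KO (2.47% of all genes were called lower) and 2 higher (against 2.41%). This mean shares its arrays with the comparisons within each muscle. The labels do not say whether both muscles came from the same mice. The fit treats the 6 arrays on each side as independent, so its p-values may be too small if they did. In 9 members every KO array lay below every WT array in both muscles (11.8%, against 2.6% of all genes), namely Mrpl2, Mrpl20, Mrpl23, Mrpl42, Mrps15, Mrps16, Mrps21, Mrps25 and Mrps33, and in 1 member, Mrps34, above (against 2.42%). Of the 76 members, 30 lay above 0 (39.5%, against 48.8% of all genes), and 29 had an unadjusted p under 0.05, which 18% of all genes had.

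Among large subunit proteins near the tunnel exit, Mrpl23 read 10.28, 10.33 and 9.57 in KO soleus and 10.71, 11.00 and 10.95 in WT soleus, and 10.62, 10.02 and 10.10 in KO TA and 11.57, 11.58 and 11.58 in WT TA. Each KO array was lower than each WT array of its muscle, and the mean fell by 1.08 (SE 0.15, adjusted p = 0.0064), 2.12-fold. Mrpl17 read 10.02, 10.42 and 10.26 in KO soleus, 9.99, 10.11 and 9.99 in WT soleus, 10.73, 11.01 and 11.11 in KO TA and 10.12, 10.31 and 10.09 in WT TA. KO and WT overlapped in soleus and stood apart in TA, and the mean rose by 0.49 (SE 0.09, adjusted p = 0.0195). Its other probe sets, with mean log2 signals of 2.58 and 2.88, differed by 0.00 and 0.01, and its calls were lost with the mean of probe sets (0.25 for this mean, 0.40 in TA).

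Of the large subunit proteins that bind ribosomal RNA, Mrpl20 read 10.12, 10.50 and 9.98 in KO soleus and 10.72, 10.54 and 10.65 in WT soleus. In TA it read 10.10, 9.97 and 9.84 in KO and 10.56, 10.47 and 10.63 in WT, without overlap in either muscle, and the mean fell by 0.51 (SE 0.09, adjusted p = 0.0178). Mrpl2, the counterpart of L2 beside the site of peptide bond formation, read 11.03, 11.31 and 11.10 in KO soleus against 11.41, 11.66 and 11.58 in WT, and 11.48, 11.46 and 11.46 in KO TA against 11.63, 11.77 and 11.71 in WT. Both muscles again showed no overlap, with a smaller fall of 0.32 (SE 0.07, adjusted p = 0.0267). Mrpl42, found in mitochondria only, read 13.93, 13.91 and 13.50 in KO soleus against 14.16, 14.19 and 14.00 in WT, and 14.03, 13.98 and 13.88 in KO TA against 14.42, 14.28 and 14.28 in WT, and fell by 0.35 (SE 0.08, adjusted p = 0.0419).

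In the small subunit, Mrps16, the counterpart of S16, read 10.03, 10.11 and 9.93 in KO soleus against 10.35, 10.71 and 10.41 in WT, and 10.50, 10.41 and 10.60 in KO TA against 10.82, 10.74 and 10.93 in WT. The fall of 0.40 (SE 0.08, adjusted p = 0.0227) had no overlap in either muscle. Mrps21 read 11.05, 11.05 and 10.95 in KO soleus against 11.21, 11.23 and 11.27 in WT, and 11.42, 11.15 and 11.20 in KO TA against 11.67, 11.70 and 12.02 in WT, and fell by 0.38 (SE 0.08, adjusted p = 0.0234). Its other probe set, at a mean log2 signal of 3.9, differed by 0.09, and with the mean of both the difference was -0.14 (adjusted p = 0.381) and in TA -0.26 (adjusted p = 0.253), neither past the test. Mrps25 read 8.51, 8.79 and 8.37 in KO soleus against 9.09, 9.18 and 9.08 in WT, and 8.84, 8.81 and 8.63 in KO TA against 8.99, 9.61 and 9.08 in WT, and fell by 0.51 (SE 0.12, adjusted p = 0.0405). The 2 other probe sets of Mrps25, at mean log2 signals of 6.21 and 2.84, differed by -0.39 and -0.03; the call was lost with the mean of the 3 (-0.31) and with no filter on low signal. Mrps34 moved the other way, with 11.07, 11.50 and 11.29 in KO soleus against 11.03, 11.03 and 11.01 in WT, and 11.31, 11.32 and 11.54 in KO TA against 10.62, 11.00 and 10.72 in WT, and rose by 0.44 (SE 0.09, adjusted p = 0.0272).

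With the array number as a block 12 members passed, the 9 and also Mrps24 (-0.42, adjusted p = 0.016), Mrpl4 (-0.36, adjusted p = 0.0306) and Mrps18b (0.42, adjusted p = 0.0126). None of the 9 calls remained without the 4 arrays numbered 3, where Mrpl23 differed by -0.91 (adjusted p = 0.0664) and Mrpl20 by -0.40 (adjusted p = 0.146). The count was 2 without KO TA replicate 2, 4 without KO soleus replicate 3, WT soleus replicate 2, WT soleus replicate 3 or KO TA replicate 3, and 5 without WT TA replicate 3. Mrpl23 and Mrpl20 kept the call whichever single array was left out.

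**Figure D2:**
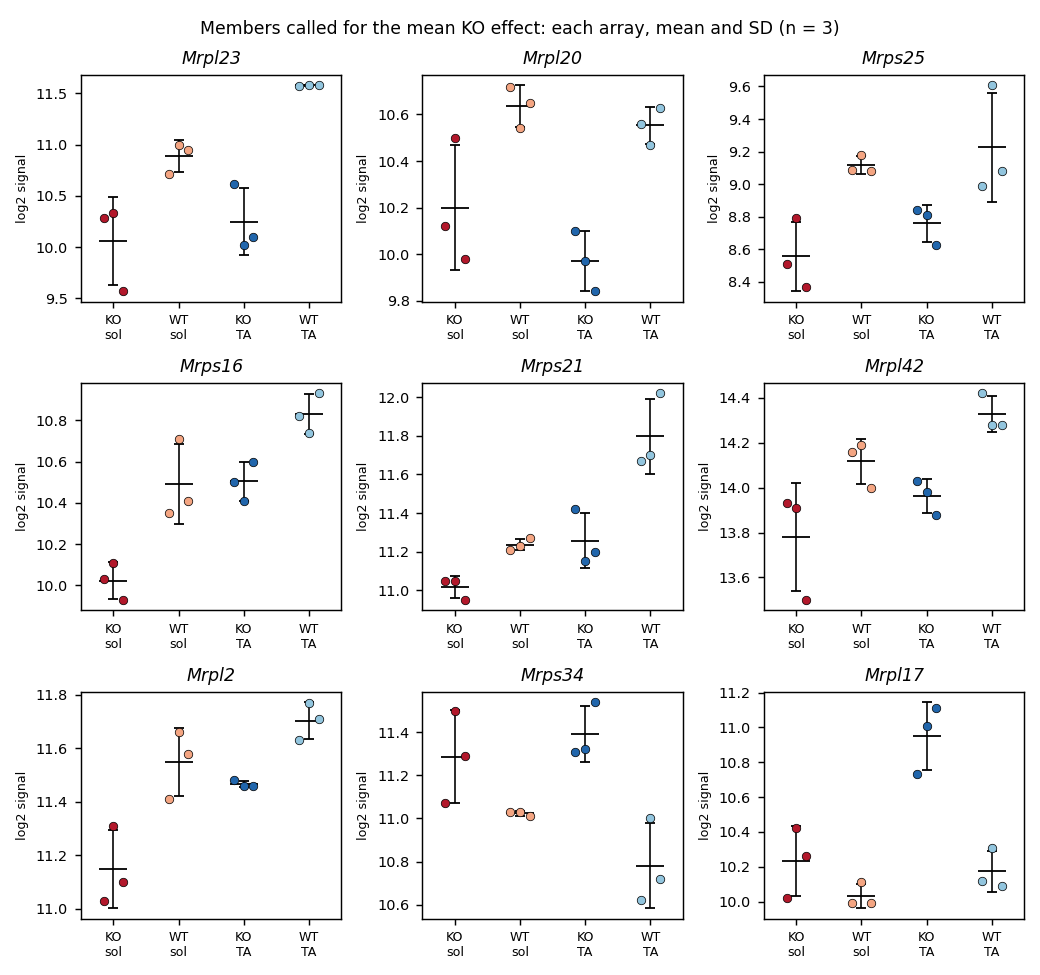
Log2 signal on each array (points), with mean and SD (n = 3), of the 9 members called for the mean KO effect, in KO and WT soleus (sol) and TA. Axes differ between panels and do not start at 0; Mrpl23 to Mrpl2 are lower in KO, Mrps34 and Mrpl17 higher.

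The KO effect in soleus was set against that in TA for every member. No member passed limma's test of this difference, at which 0.0384% of all genes were called, and 6 did at an unadjusted p under 0.05, against 5.7% of all genes. The lowest values, with the effect in soleus below that in TA, were those of Mrpl45 (-0.74, adjusted p = 0.824), Mrps18b (-0.60, adjusted p = 0.863), Mrps27 (-0.59, adjusted p = 0.899) and Mrpl38 (-0.58, adjusted p = 0.677). The highest were those of Mrpl23 (0.51, adjusted p = 0.895), Mrps9 (0.36, adjusted p = 0.899), Mrpl50 (0.33, adjusted p = 0.895) and Mrps21 (0.32, adjusted p = 0.863). The median over the members was -0.10, against 0.01 for all genes, and 28 lay above 0 (36.8%, against 51.5%). The SE of a typical gene in this comparison was 0.25, so that the calls made in TA and not in soleus are not shown to be specific to TA.

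The large and small subunits were then compared. In soleus both subunits had medians below 0, -0.07 for the 47 large subunit genes and -0.14 for the 29 small subunit genes. In TA the medians were 0.02 and -0.15. Of the small subunit genes 22 lay below 0 in soleus (75.9%) and 18 in TA (62.1%), and of the large subunit genes 32 (68.1%) and 22 (46.8%), against 48.9% and 51.4% of all genes. Calls were found in both subunits, with 3 of 47 (6.38%) and 2 of 29 (6.9%) in TA, against 2.83% of all genes, and 5 of 47 (10.6%) and 4 of 29 (13.8%) for the mean of both muscles, against 4.88%. The large subunit median in TA was -0.04 without KO TA replicate 2, and that in soleus was 0.00 without KO soleus replicate 3.

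The subunits were also averaged on each array, as a mean log2 signal of which only changes between arrays can be read, since probe sets differ in brightness. Large subunit means were 10.23, 10.42 and 10.18 in KO soleus against 10.40, 10.44 and 10.38 in WT, and 10.41, 10.47 and 10.44 in KO TA against 10.42, 10.45 and 10.44 in WT. Small subunit means were 9.90 ± 0.09 (SD, n = 3) in KO soleus against 10.04 ± 0.02 in WT, where they ran from 10.01 to 10.05, and 10.04 ± 0.04 in KO TA against 10.12 ± 0.06 in WT. KO and WT therefore overlapped in the large subunit in both muscles, and in the small subunit only in TA. In soleus the small subunit gap was narrow: the highest KO array lay just below the lowest WT array (10.01), by less than the pooled SD of 0.06. The soleus means moved alike in both subunits, at 10.28 in KO against 10.41 in WT for the large and 9.90 against 10.04 for the small. The overlap in soleus thus does not set the subunits apart. Large minus small was 0.38 ± 0.04 (SD, n = 3) in KO soleus and 0.37 ± 0.03 in WT soleus, which overlapped. It was 0.41, 0.40 and 0.38 in KO TA and 0.37, 0.30 and 0.28 in WT TA, which did not overlap. That gap was narrow too: the lowest KO array (0.38) lay just above the highest WT array (0.37), by less than the pooled SD of 0.04. The means in TA were 0.40 ± 0.02 and 0.32 ± 0.05, and no test was made.

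**Figure D3:**
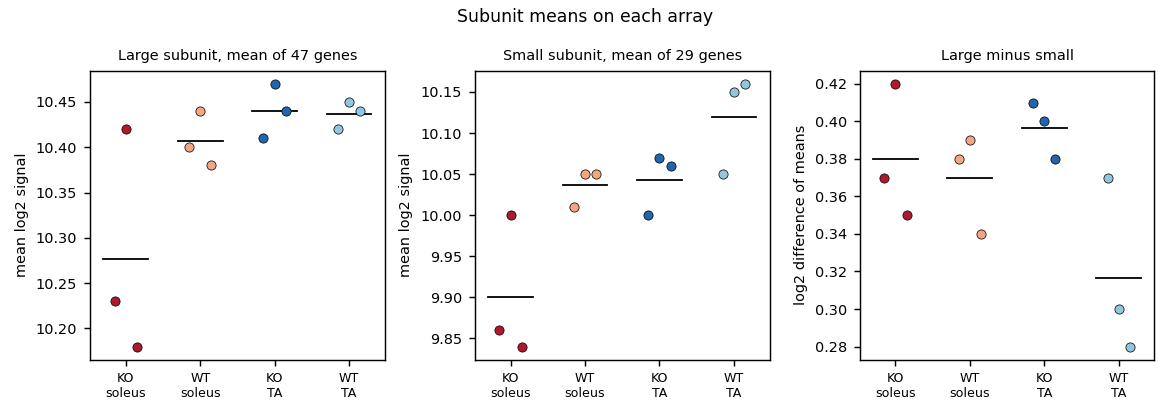
Mean log2 signal of the 47 large subunit genes (left) and 29 small subunit genes (middle) and their difference (right) on each of the 12 arrays (points), with group means (lines). The axes do not start at 0; KO TA arrays lie at 0.38 to 0.41 in the right panel and WT TA arrays at 0.28 to 0.37.

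The symbols are not a perfect guide to the subunits. Structures of the mammalian mitoribosome place Mrps18a and Mrps30 in the large subunit, and Mrps36 is now known as a part of the 2-oxoglutarate dehydrogenase complex of the citric acid cycle. None of these 3 passed a test in the fit reported here; with the array number as a block Mrps18a passed between WT muscles (0.33, adjusted p = 0.0234; 0.36 and 0.0152 with array weights) and Mrps36 between KO muscles (-0.34, adjusted p = 0.029). Between KO and WT, Mrps18a differed by -0.22 in soleus and 0.05 in TA, Mrps30 by -0.01 and 0.18, and Mrps36 by -0.07 and 0.01. With Mrps18a and Mrps30 moved and Mrps36 left out, the TA medians were 0.02 for 49 large and -0.20 for 26 small subunit genes.

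Members were also split by the number in the symbol, which roughly follows descent: Mrpl1 to Mrpl36 and Mrps1 to Mrps21 (43 genes), whose numbers come from bacterial proteins, and the higher numbers (33 genes), most of them found in mitochondria only, although Mrps24 and Mrps28 also have bacterial counterparts. Medians for the mean KO effect were -0.12 and 0.01, with 6 and 3 calls (14% and 9.09%, against 4.88% of all genes). In the small subunit 13 of 16 genes with low numbers lay below 0 (median -0.17) and 7 of 13 with high numbers (-0.03). In the large subunit 17 of 27 with low numbers did (-0.07) and 9 of 20 with high numbers (0.01), against 51.2% of all genes. These are descriptions of how the members divide, with no test.

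Between the muscles of WT mice, 7 members differed (9.21%, against 10.7% of all genes), a share near that of all genes. Mrpl14 and Mrpl3 were higher in soleus, and Mrps21, Mrps10, Mrpl52, Mrps15 and Mrpl13 were lower, where 4.45% of all genes were called higher and 6.28% lower. At an unadjusted p under 0.05 there were 21 members, and 27.1% of all genes. Above 0 lay 32 members (42.1%, against 44.9% of all genes), 20 lay lower in soleus without overlap (26.3%, against 21.6%) and 9 higher (11.8%, against 13.7%). Mrpl14, whose bound partner Malsu1 keeps the subunits apart during assembly, read 9.38, 9.72 and 9.75 in WT soleus and 8.77, 8.73 and 9.23 in WT TA (difference 0.70, SE 0.17, adjusted p = 0.0302). The lowest soleus array was above the highest TA array. Mrpl3, the counterpart of L3 at the catalytic core, read 11.13, 11.13 and 10.82 in soleus and 10.47, 10.54 and 10.57 in TA (0.50, SE 0.13, adjusted p = 0.0324), and its second probe set differed by 0.56. Mrps21 read 11.21, 11.23 and 11.27 in soleus and 11.67, 11.70 and 12.02 in TA (-0.56, SE 0.11, adjusted p = 0.00979). The remaining 4 calls ran from -0.48 (Mrps10, adjusted p = 0.0205) to -0.44 (Mrps15, adjusted p = 0.0384), and the other probe sets of Mrpl13, Mrpl52 and Mrps15 with a mean log2 signal above 8 differed by -0.47 to -0.32. The calls of Mrpl3, Mrps21, Mrps10 and Mrpl52 were lost with the mean of probe sets.

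The direction of this family between WT muscles depended on the scaling. The large and small subunit medians were -0.04 and -0.07, with 2 calls higher and 5 lower in soleus, but 0.02 and 0.01 with 4 higher and 3 lower on the table as deposited, and 0.10 and 0.09 with 5 higher and none lower after median centring. With the array number as a block 13 members passed, 3 higher and 10 lower. The count was 2 without the first array of either WT muscle or the second of WT TA, 3 without WT soleus replicate 2, and 4 without WT TA replicate 3; Mrps21 kept its call whichever array was left out, but not with median centring or the mean of its probe sets.

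Between the muscles of KO mice, 11 members differed (14.5%, against 8.94% of all genes), of which 9 were lower in soleus (4.6% of all genes were) and 2 higher (4.34%). At an unadjusted p under 0.05 there were 25 members, and 24% of all genes. Above 0 lay 25 members (32.9%, against 42.9% of all genes), 24 lay lower in soleus without overlap (31.6%, against 18.5%) and 3 higher (3.95%, against 11.7%). Mrpl38, a mitochondria-only protein of the large subunit, read 9.66, 9.88 and 9.97 in KO soleus and 10.62, 10.90 and 10.71 in KO TA (-0.90, SE 0.13, adjusted p = 0.00256). It kept its call under all 24 alternatives tried, over which its difference ran from -0.99 to -0.49. In WT it read 9.88, 10.28 and 10.16 in soleus and 10.34, 10.46 and 10.51 in TA. Mrpl17 differed by -0.72 (SE 0.13, adjusted p = 0.00891), its KO TA arrays being the highest of all 12. Mrps9, of the small subunit, read 10.35, 10.64 and 10.42 in KO soleus and 9.49, 9.90 and 9.83 in KO TA (0.73, SE 0.17, adjusted p = 0.0300), although its 3 other probe sets, at mean log2 signals of 8.39, 7.51 and 2.92, differed by 0.02, 0.30 and -0.20, and with the mean of all 4 the difference was 0.21 (adjusted p = 0.439). Mrpl33 read 11.85, 11.71 and 11.74 in KO soleus and 11.26, 11.30 and 11.34 in KO TA (0.46, SE 0.09, adjusted p = 0.0125). Its other probe set, at a mean log2 signal of 2.79, differed by -0.05, and the call was lost with the mean of probe sets. The other lower members were Mrpl37, Mrpl57, Mrpl52, Mrps12 (the counterpart of S12 at the decoding centre), Mrps16, Mrpl34 and Mrpl15, with differences of -0.58 to -0.36. Of these, Mrpl57 and Mrpl52 lost the call with the mean of probe sets. Mrpl52 was the single member called between the muscles of both genotypes.

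The medians of the large and small subunit in this comparison were -0.18 and -0.16, against -0.02 for all genes, and stayed below 0 at -0.09 and -0.09 on the table as deposited and -0.08 and -0.08 after median centring. Calls split into 2 higher and 5 lower under either of these scalings. The block for the array number gave 18 calls, 2 higher and 16 lower. Without KO soleus replicate 1 the count was 2, without KO TA replicate 3 it was 3, without KO TA replicate 2 it was 4, without KO TA replicate 1 it was 6, and without the 4 arrays numbered 3 it was 3. The KO and WT comparisons between muscles use different arrays, and no member passed the test of the difference of effects given above.

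**Figure D4:**
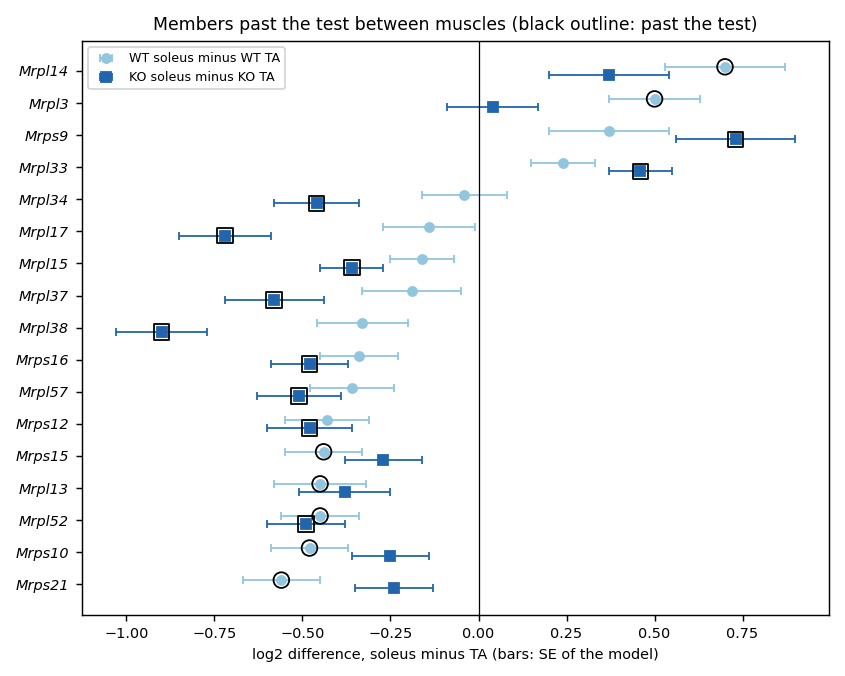
Log2 difference of soleus minus TA in WT (circles) and KO (squares) for the 17 members past the test in either genotype, with the SE of the model; black outlines mark calls. Mrpl14, Mrpl3, Mrps9 and Mrpl33 lie right of 0, the other 13 left of 0.

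The other genes of mitochondrial translation were read from lists chosen by symbol. Of 4 measured further proteins of the ribosome itself (Dap3 and others), none passed in any comparison. Of 21 genes of ribosome assembly and ribosomal RNA modification, Mrm1, a methyltransferase of the large ribosomal RNA, rose in KO TA by 1.31 (SE 0.28, adjusted p = 0.0385). Malsu1, the partner of Mrpl14, was lower in soleus than in TA, with a difference of -0.80 in WT (SE 0.14, adjusted p = 0.00554) and -0.63 in KO (SE 0.14, adjusted p = 0.0195), opposite in sign to Mrpl14. Of 14 measured translation factors, 3 fell over both muscles (21.4%, against 4.88% of all genes): Slirp, which with Lrpprc stabilises mitochondrial messenger RNAs, by 0.38 (SE 0.06, adjusted p = 0.0118), the elongation factor Gfm1 by 0.38 (SE 0.08, adjusted p = 0.0290) and the recycling factor Gfm2 by 0.46 (SE 0.11, adjusted p = 0.0381). Slirp also fell in KO TA, by 0.55 (SE 0.09, adjusted p = 0.0125). Lrpprc was higher in WT soleus than in WT TA by 0.64 (SE 0.16, adjusted p = 0.0323). Of 9 regulators of mitochondrial biogenesis, none passed between KO and WT and all 9 lay above 0 in WT soleus against WT TA (median 0.21, with 44.9% of all genes above 0), with none called. Pprc1 of this list was lower in KO soleus than in KO TA (-0.62, adjusted p = 0.0397), and of 10 genes of mitochondrial DNA upkeep and transcription Mterf1a was higher there by 0.64 (adjusted p = 0.0217), each the single call of its list.

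The respiratory chain, whose mitochondrially encoded subunits these ribosomes make, had medians farther below 0 than the ribosome. Of its 77 nuclear genes measured, 67 lay below 0 in KO soleus (87%, against 48.9% of all genes, median -0.23). In KO TA 65 did (84.4%, against 51.4%, median -0.17). Over both muscles 17 were called lower and 1 higher (23.4% called, against 4.88% of all genes, of which 2.47% lower and 2.41% higher). Among them Ndufa3 of complex I fell by 0.48 (adjusted p = 0.0118), Cox5b of complex IV by 0.32 (adjusted p = 0.0140), and Atp5j2 of ATP synthase by 0.29 (adjusted p = 0.0103). The riser was Cox7a2l, a factor of respiratory supercomplexes (0.50, adjusted p = 0.0291). Cytosolic ribosomal protein genes went the other way, with 40 of 43 above 0 in soleus (93%, against 51.1% of all genes, median 0.22). In TA 37 were above 0 (86%, against 48.6%, median 0.20). Over both muscles 10 of them were called higher and none lower (23.3% called, against 4.88% of all genes). The members' medians of -0.10 and -0.01 thus lay between these lists. No test compared the lists with each other, and several cytosolic ribosomal protein genes have many processed pseudogenes with near-identical sequence.

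**Figure D5:**
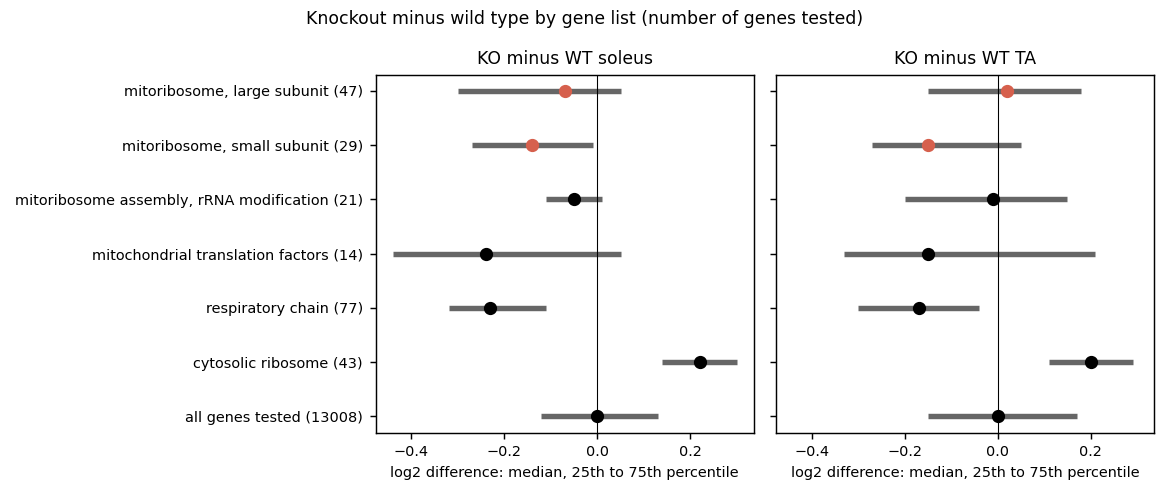
Median (points) and 25th to 75th percentile (bars) of the log2 difference KO minus WT in soleus (left) and TA (right), for the mitoribosomal subunits (red) and other gene lists (black), with the number of genes tested. The respiratory chain lies left of 0 and the cytosolic ribosome right of 0 in both muscles, with the mitoribosomal subunits between them.

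Members with and without the promoter motifs were set side by side as a description. The 12 members with the NRF1 letters had a median KO difference of 0.01 in soleus and 0.12 in TA, and the 55 without them -0.11 and -0.06. For the 25 with the GABPA letters the medians were -0.09 and 0.05, against -0.11 and -0.04 for the 42 without. The 12 with the YY1 letters had -0.22 and -0.01, against -0.07 and -0.02 for the other 55. In WT soleus against WT TA, the 12 with YY1 letters had a median of -0.21 and the others of 0.01.

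The sums of endothelial, fibroblast, adipocyte, erythroid, myeloid, smooth muscle, Schwann cell, tendon and satellite cell markers overlapped between KO and WT in both muscles, though Thbs4 of the tendon list fell by 1.58 in KO TA (SE 0.30, adjusted p = 0.0256). The adipocyte sum held 3 of 6 listed genes. The erythroid sum held 2 of 5, both dim, with group means of 3.49 to 4.77. Of these Slc4a1 read 3.98 to 4.07 in KO TA against 4.33 to 4.77 in WT TA (-0.47, adjusted p = 0.0594), and Alas2 overlapped. Between WT muscles, endothelial, myeloid, Schwann cell, tendon and satellite cell sums were all higher in soleus without overlap, and between KO muscles the adipocyte, Schwann cell and satellite cell sums were. The Schwann cell sum held 2 of 5 listed genes, which went opposite ways. Pmp22 and Sox10 differed by 1.06 and -0.71 between WT muscles, and by 1.07 and -0.41 between KO muscles. In the tendon list 2 of 4 genes lay above 0 between WT muscles, and Thbs4 differed by -0.26. The satellite cell sum was 1 gene, Myf5. The lymphocyte sum went the other way between WT muscles, at 52.3 to 106 in soleus against 1540 to 2110 in TA, with Ighm at -4.89 (SE 0.47, adjusted p = 0.000279), and overlapped between KO muscles. Cd3e, the only other gene in this sum, differed by -0.15 between WT muscles (adjusted p = 0.254), so the sum followed Ighm. Fast fibre sums were lower in soleus in both genotypes, at 310000 to 346000 against 495000 to 512000 in WT and 265000 to 318000 against 438000 to 483000 in KO. The part of these markers in the results was not tested.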

How the data were processed

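RNA of 12 muscle samples was read on 45101 probe sets, 64 of them controls. The deposited table holds log2 values; the submitters' processing notes name MAS5, with no version, and the trimmed means of the unlogged columns differed by at most 1.11-fold between arrays. The table was then quantile normalised between arrays. Probe sets with 1 symbol in the platform annotation were used (34945, while 932 had several and 9160 none). Each gene took its brightest probe set by its mean over 12 arrays of the deposited table, which leaves out isoforms read by others. The gene was then kept where this probe set lay above log2 2.76, the 40th percentile, on 3 or more arrays.

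Differences were fitted with limma 3.58.1 in R 4.3.3 as means of 4 groups (lmFit, eBayes with a variance trend) and adjusted by Benjamini-Hochberg over 13008 genes; calls are adjusted p under 0.05 in 6 comparisons. P-values weigh a difference against the spread between replicate arrays, estimated over all 4 groups and moderated by the variance trend. The smallest exact permutation p for 3 against 3 is 0.1, so no single-value test was made. The typical SE was 0.18 within a muscle and 0.13 for the mean KO effect. On simulated data for KO against WT TA (13008 genes), 71% of genes changed by log2 1 and 91% of those changed by 2 were recovered. The simulated noise was independent, without the deviation shared by the arrays numbered 3. The 25th and 75th percentiles of the members' differences in TA were -0.23 and 0.16, and recovery of changes that small was not simulated.

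Arrays of the same number had deviations from their group means that correlated above 0.1 in every pair for KO with WT TA (0.35, 0.16 and 0.56), KO soleus with KO TA (0.49, 0.43 and 0.59) and WT soleus with WT TA (0.35, 0.14 and 0.59). For KO with WT soleus they were 0.43, 0.09 and 0.61. Array 1 with array 2, and 2 with 1, gave 0.24 and 0.20, -0.02 and 0.10, 0.35 and 0.22, and 0.27 and 0.29, in the same order. Among these pairs of groups, only in KO soleus with KO TA did both arrays 1 and 2 correlate more with their own number. Elsewhere the number mainly set array 3 apart, which limits what the block can pair. All members past the test are named, and where fewer than 3 passed, the 4 highest and 4 lowest; Mrps18a, Mrps30 and Mrps36 always, and up to 4 called genes of each other list. The members, lists and motifs were chosen with earlier results of these data known. Promoters came from RefSeq (GRCm38.p6) by symbol.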

Additional observations from a re-analysis of the deposited data

How the results depend on the processing

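Of 32 calls of single members, 5 held whichever array was left out, 1 (Mrpl38) held under every alternative, and none changed sign. Over 759 refits of these calls 512 kept the call and 247 lost it; the causes were not tested. Counts of members called were 0 in KO against WT soleus but 7 with array weights. For KO against WT TA they were 5, and 3 with no filter, 2 with the mean of probe sets, 0 with only the groups compared fitted, 10 with the replicate block, 0 without the arrays numbered 3, and 0 to 6 with one array left out. For the mean KO effect they were 9, 0 without the arrays numbered 3, 2 to 7 with one array left out, and 12 with the replicate block. For WT soleus against WT TA they were 7, and 17 with array weights, 3 with the mean of probe sets, 1 with only the groups compared, 13 with the replicate block and 2 to 9 with one array left out. For KO soleus against KO TA they were 11, and 7 on the table as deposited, 7 with median centring, 7 with the mean of probe sets, 2 with only the groups compared, 18 with the replicate block, 3 without the arrays numbered 3 and 2 to 11 with one array left out. The block changed neither the count in soleus nor that for the difference of effects, which stayed at 0 under all 23 alternatives tried. Medians of large and small subunit genes moved as follows. In soleus (-0.07, -0.14) the small subunit gave -0.08 with the mean of probe sets. In TA (0.02, -0.15) they gave 0.09 and -0.05 with median centring, and the small subunit -0.09 without the arrays numbered 3. For the difference of effects (-0.13, -0.06) they gave -0.21 and -0.14 with median centring. Between WT muscles (-0.04, -0.07) they gave 0.10 and 0.09 with median centring, and the small subunit 0.01 as deposited. Between KO muscles (-0.18, -0.16) they gave -0.09 and -0.09 as deposited and -0.08 and -0.08 with median centring, the large subunit -0.11 with array weights and -0.09 without the arrays numbered 3, and the small subunit -0.10 with the mean of probe sets. Large minus small was 0.08 in soleus and 0.01 with the mean of probe sets; 0.17 in TA, with 0.11 by array weights, 0.13 by the mean of probe sets, 0.09 without the arrays numbered 3 and 0.22 by structure; 0.11 for the mean KO effect and 0.07 with the mean of probe sets; and -0.02 between KO muscles, with 0.03 by array weights and 0.04 without the arrays numbered 3. With one array left out, large, small and large minus small ranged from -0.16 to 0.00, -0.16 to -0.08 and -0.02 to 0.13 in soleus, and from -0.04 to 0.06, -0.15 to -0.07 and 0.09 to 0.21 in TA. They ranged from -0.09 to 0.00, -0.17 to -0.12 and 0.09 to 0.13 for the mean KO effect, and from -0.21 to -0.04, -0.15 to -0.01 and -0.09 to -0.03 for the difference of effects. They ranged from -0.09 to -0.01, -0.14 to -0.04 and -0.05 to 0.09 between WT muscles, and from -0.26 to -0.07, -0.21 to -0.13 and -0.05 to 0.06 between KO muscles. With 3 arrays a group, differences near the typical SE of 0.18 cannot be resolved gene by gene.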
